A study of Homo sapiens with 12 samples.

Results

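The results below follow 9 genes of the p53 pathway: MDM2, MDM4, AEN, TNFRSF10B, FAS, RRM2B, SESN1, TP53I3 and ZMAT3. They were chosen by name, with earlier results of these data known. They are 9 of the 62069 genes in the deposited table, and all 9 were among the 19281 genes that reached a value of 10 in 3 or more libraries and were tested. The cells were CUTLL1, an established line from a human T-cell leukaemia (T-ALL) whose growth is driven by a rearranged, active NOTCH1 gene. Poly-A RNA was sequenced in 12 libraries of this 1 line, 3 in each of 4 groups: solvent (DMSO) for 12 h, 1 µM Compound E for 12 h, DMSO for 48 h and 1 µM Compound E for 48 h. Compound E is an inhibitor of gamma-secretase (GSI), the protease that releases the active part of NOTCH1, and no arm had been given a DNA-damaging agent according to the labels. The labels do not say that the 3 libraries of a group came from separate cultures, so each p-value measures the spread between these libraries only.

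The protein p53 is a transcription factor that is kept at a low level in unstressed cells and accumulates after DNA damage and other stress. It is held in check by MDM2, a ubiquitin ligase that marks it for destruction, and by the related protein MDM4, which blocks its activity. MDM2 is itself a target of p53, so the pair forms a feedback loop, and other targets arrest the cell cycle, repair DNA, adjust metabolism or start apoptosis. In T-cell leukaemia the arm upstream of MDM2 is commonly disabled by loss of CDKN2A, the locus that also encodes ARF, an inhibitor of MDM2.

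Depth was ample for the 9 genes: libraries held 73939612 to 160702764 recovered reads, and the scarcest of the genes, TP53I3, rested on 71 to 203 reads per library. All 10 T-cell markers examined were kept, with a summed level of 257426 to 360653, while the 6 erythroid, epithelial and stromal markers summed to at most 14.8. Of 5 B-cell markers only CD79A was kept (659 to 3042). Of 4 NK-cell markers 3 were kept, and KLRD1 was the highest (181 to 401). Of 5 myeloid markers 2 were kept, and the 5 summed to at most 53.1. The median relative log2 level of 12 NOTCH1 target genes lay at 1.00 to 1.33 in the DMSO 12 h libraries, at 0.40 to 0.92 in GSI 12 h, at -1.05 to -0.38 in DMSO 48 h and at -1.14 to -1.06 in GSI 48 h. These targets thus differed more between the libraries labelled 12 h and 48 h than between those labelled DMSO and GSI. Between treatments, limma called 6 of the 12 lower in GSI at 12 h, beside 11.4% of all genes, and 3 at 48 h, beside 5.35%. None was called higher in GSI. Over time, 10 of the 12 were called lower in DMSO 48 h than in DMSO 12 h, beside 2.51% of all genes. For that reason every group name here stands for what its libraries are labelled, and whether the labels match the treatments was not tested. In RNA from a whole culture, fewer cells expressing a gene and less RNA per cell cannot be told apart.

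MDM2 (ENSG00000135679) is the member for which a p53-responsive promoter inside the gene is best known. RefSeq's promoter table, on build GRCh38.p14, holds 15 windows of 7 of the 9 genes. The 250 bases before each start were searched on both strands for a pair of p53 half-sites. At most 2 mismatches in all and at most 13 bases between the half-sites were allowed, and the core C and G of each half-site had to match. Such a pair was found for MDM2, FAS and AEN, in 4 of the 15 windows, which hold 3 different matches. Over all 35116 windows in the table the share was 2.49%. The 9 genes were chosen by name from the p53 pathway, so setting these shares side by side is not a test. MDM2 and AEN both carry a match, and their levels behaved differently in these libraries. Whether a match bears on the level of its gene was not tested. Each match has 2 mismatches, the most allowed: 1 in each half-site for MDM2, and 2 in the second half-site for AEN and for FAS. Capitals mark the matched pair, and for MDM2 the 40 bases on either side are added in lower case.
MDM2: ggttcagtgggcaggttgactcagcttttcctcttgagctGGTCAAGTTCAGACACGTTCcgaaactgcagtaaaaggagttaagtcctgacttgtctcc
AEN: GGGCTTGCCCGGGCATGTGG
FAS: GGACAAGCCCTGACAAGCCA

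The MDM2 stretch is chr12:68808883-68808982 on the plus strand of GRCh38.p14, its matched pair ends 74 bases before a RefSeq start, and it lies in an intron of the 7 annotated transcripts that span it. The AEN match is chr15:88621306-88621325 on the plus strand, 14 bases before a RefSeq start and within an exon of 1 other protein-coding transcript. The FAS match is chr10:88991309-88991328 on the plus strand, 102 bases before a RefSeq start. It is spanned by 13 annotated transcripts, and only exons of 2 non-coding transcripts overlap it. A match describes these letters only, and binding of p53 was not measured here. The authors' own build was hg19, so these positions come from RefSeq and not from the deposited table.

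Among the 9 genes, the level of MDM2 was the flattest over the 12 libraries. Its normalised read count, the deposited unit in which reads are scaled by library size, was 7292, 7562 and 7281 in DMSO 12 h libraries 1 to 3 and 7166, 6889.9 and 7369 in GSI 12 h. At 48 h it was 7197, 7746 and 7544 in DMSO and 6904, 7770.2 and 7491 in GSI. All 4 groups overlapped, and the highest library was 1.13 times the lowest.

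At 12 h, MDM2 had a mean of 7378 ± 159 in DMSO and 7142 ± 240.4 in GSI (SD, n = 3 each). The difference was -0.05 ± 0.07 on the log2(value + 1) scale (SE), with a 95% interval of -0.21 to 0.11 and an adjusted p of 0.680 by limma. The 48 h difference was -0.02, with an interval of -0.18 to 0.14 (limma adjusted p = 0.873). Neither interval reached further than 0.21 from 0. The sign of so small a value turned with the scaling: with upper-quartile scaling it was 0.04 at 12 h and 0.07 at 48 h.

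MDM4 (ENSG00000198625), the partner of MDM2 in restraining p53, was higher in GSI at 48 h. MDM4 had a normalised read count of 9751, 8192 and 7623 in DMSO 12 h libraries 1 to 3 and 13699.7, 8719.6 and 16438 in GSI 12 h. MDM4 counts at 48 h were 10521, 9572 and 8882 in DMSO and 17666, 12919 and 15822 in GSI. All 3 GSI libraries stood above all 3 DMSO libraries at 48 h, whereas at 12 h GSI library 2 lay within the DMSO range.

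The mean of MDM4 at 48 h was 9658 ± 823 in DMSO and 15469 ± 2393 in GSI (SD, n = 3 each), a log2 difference of 0.67 ± 0.19 (SE) that passed the test (limma adjusted p = 0.0441). At 12 h the means were 8522 ± 1102 and 12952 ± 3913, and the log2 difference of 0.56 ± 0.19 missed the threshold narrowly (limma adjusted p = 0.0508). With 1 library left out, the 12 h difference ranged from 0.37 to 0.82. Without both GSI libraries numbered 2 it was 0.82, with a limma adjusted p of 0.00106. Library 2 was the lowest of GSI 12 h, so leaving it out could only raise the difference. The 48 h call was lost without any 1 of 8 libraries: DMSO 12 h library 2 or 3, GSI 12 h library 1, any DMSO 48 h library, or GSI 48 h library 1 or 3. The value was lowest without GSI 48 h library 1 (0.57, limma adjusted p = 0.180).

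GSI 12 h library 2 also stood apart in another respect. The median relative log2 level of 16 hypoxia response genes was 2.62, 0.65 and 2.42 in GSI 12 h libraries 1 to 3 and 1.61, -0.13 and 0.71 in GSI 48 h. In the 6 DMSO libraries it lay between -1.63 and -1.07. Thus the hypoxia list was lowest, within each GSI group, in library 2, where MDM4 was also lowest and AEN highest. The part of the hypoxia response in the MDM4 and AEN values was not tested.

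**Figure D1:**
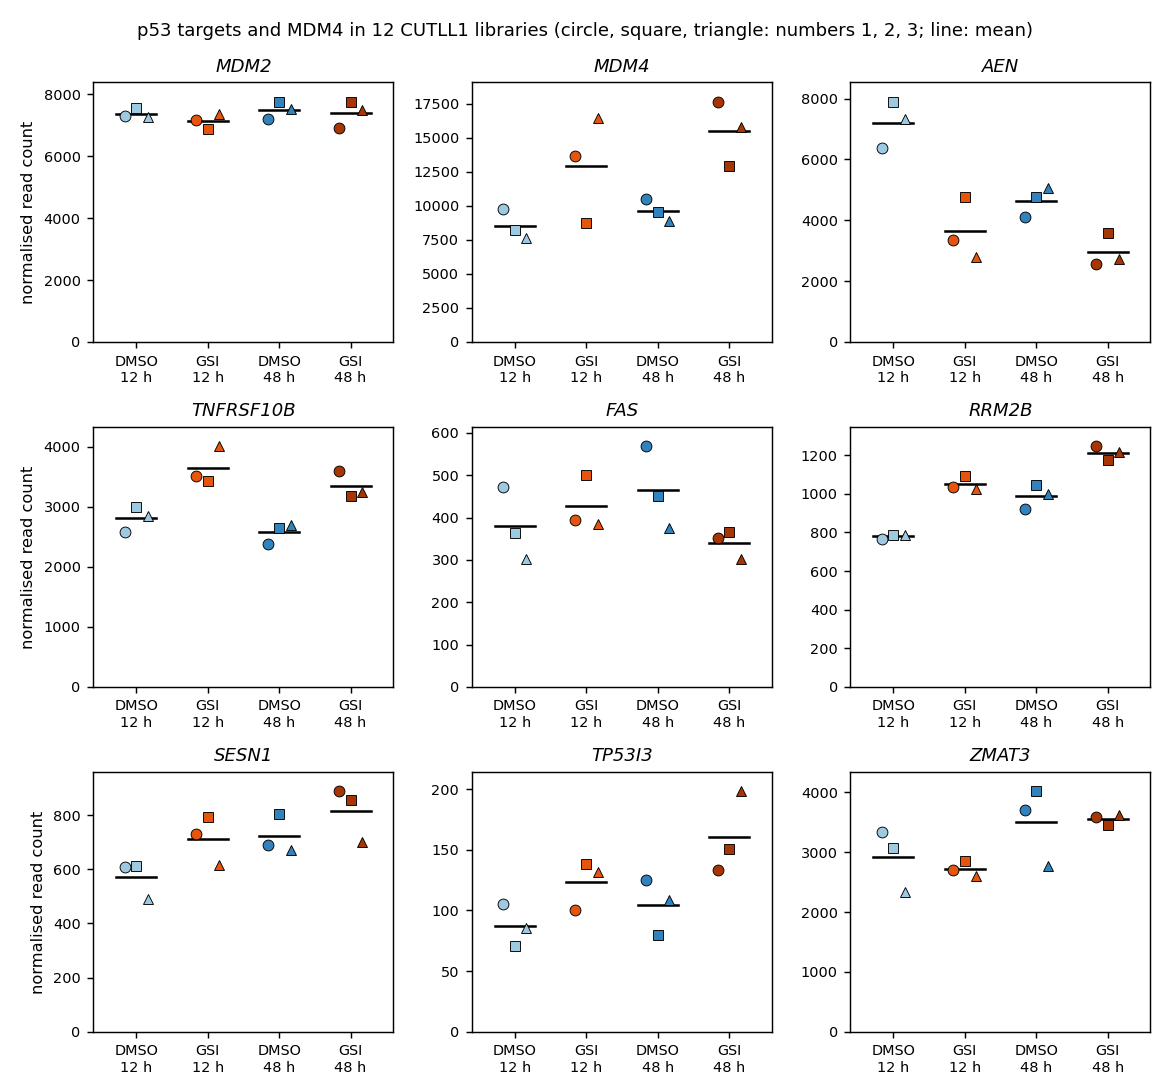
Normalised read count of each of the 9 genes (vertical axis, starting at 0) in the 4 groups (horizontal axis), with circles, squares and triangles for libraries 1, 2 and 3 and a line at the group mean. MDM2 spans 1.13-fold over all 12 libraries, AEN is lower and TNFRSF10B higher in the GSI libraries than in the DMSO libraries of the same time, and the groups of FAS and ZMAT3 mostly overlap.

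AEN (ENSG00000181026), a nuclease that takes part in DNA fragmentation during apoptosis, showed the largest 12 h difference among the 9 genes, and in the opposite direction to MDM4. AEN had a normalised read count of 6382, 7904 and 7325 in DMSO 12 h libraries 1 to 3 and 3338, 4762 and 2809 in GSI 12 h. AEN counts at 48 h were 4119, 4758 and 5046 in DMSO and 2547, 3573 and 2719.9 in GSI. GSI libraries lay below DMSO libraries of the same time without overlap, and the DMSO 48 h libraries lay below the DMSO 12 h libraries.

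AEN fell from a mean of 7204 ± 768 in DMSO to 3636 ± 1010.0 in GSI at 12 h (SD, n = 3 each), a log2 difference of -1.02 ± 0.18 (SE, limma adjusted p = 0.00368). At 48 h it fell from 4641 ± 475 to 2947 ± 549, a log2 difference of -0.67 ± 0.18 (limma adjusted p = 0.0358). The 48 h call was lost without any 1 of the 6 libraries compared except GSI 48 h library 2, with log2 differences between -0.57 and -0.75. The difference between the 12 h and 48 h effects was 0.35 ± 0.25 (SE) and did not pass (limma adjusted p = 0.999).

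TNFRSF10B (ENSG00000120889), a death receptor for the ligand TRAIL, moved the other way. TNFRSF10B had a normalised read count of 2584, 2993 and 2851 in DMSO 12 h libraries 1 to 3 and 3508, 3435 and 4007 in GSI 12 h. TNFRSF10B counts at 48 h were 2385, 2654 and 2693 in DMSO and 3602, 3178 and 3244 in GSI. All 6 GSI libraries stood above all 6 DMSO libraries.

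TNFRSF10B rose from 2809 ± 208 to 3650.2 ± 311 at 12 h (mean ± SD, n = 3 each), a log2 difference of 0.38 ± 0.10 (SE, limma adjusted p = 0.0179). At 48 h it rose from 2577 ± 168 to 3341 ± 228, a log2 difference of 0.37 ± 0.10 (SE, limma adjusted p = 0.0343). The 12 h call was lost without DMSO 12 h library 1 (0.32, limma adjusted p = 0.0642) or GSI 12 h library 3 (0.31, limma adjusted p = 0.0656), and also with only the compared groups fitted (limma adjusted p = 0.0562). The 48 h call was lost without any 1 of the 6 libraries compared except GSI 48 h library 2 (0.32 to 0.41). The gene overlaps RHOBTB2 on the other strand, and reads of the pair cannot be told apart if counting ignored strand. RHOBTB2 had means of 919.8 and 872.2 in DMSO and GSI at 12 h and of 1187 and 1104 at 48 h. Its part in the TNFRSF10B counts was not tested.

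FAS (ENSG00000026103), the receptor for FAS ligand, passed the test in neither treatment comparison. FAS had a normalised read count of 472, 363 and 302 in DMSO 12 h libraries 1 to 3 and 394, 501 and 386 in GSI 12 h. FAS counts at 48 h were 568, 451 and 376 in DMSO and 351, 367 and 302 in GSI. The groups overlapped at 12 h, and at 48 h the highest GSI library lay just under the lowest DMSO library.

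The log2 difference of FAS was 0.18 ± 0.19 (SE) at 12 h (limma adjusted p = 0.522) and -0.43 ± 0.19 at 48 h (limma adjusted p = 0.153). Same-numbered libraries of the 2 treatments deviated together only weakly at 48 h (correlations of 0.103, 0.157 and 0.104). With the number as a block over all libraries the 48 h difference had an SE of 0.14 and passed (limma adjusted p = 0.0460). That call thus rests on a weak pairing. ACTA2, which overlaps FAS on the other strand, had few reads, with group means of 28.01 in DMSO 12 h, 17.0 in GSI 12 h, 22.1 in DMSO 48 h and 13.6 in GSI 48 h.

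RRM2B (ENSG00000048392) encodes the p53-inducible small subunit of ribonucleotide reductase, which supplies deoxynucleotides for DNA repair. RRM2B had a normalised read count of 767, 785 and 784 in DMSO 12 h libraries 1 to 3 and 1035, 1091 and 1025 in GSI 12 h. RRM2B counts at 48 h were 920.2, 1043 and 999 in DMSO and 1245, 1174 and 1216 in GSI. The DMSO 12 h libraries were the lowest and the GSI 48 h libraries the highest, and neither group overlapped any other.

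RRM2B rose at 12 h from 779 ± 10.3 to 1050.2 ± 35.5 (mean ± SD, n = 3 each), a log2 difference of 0.43 ± 0.09 (SE, limma adjusted p = 0.00892). At 48 h the means were 987 ± 62.2 and 1212 ± 35.5, and the log2 difference of 0.30 ± 0.09 did not pass (limma adjusted p = 0.0621). With the number as a block it did (SE 0.08, limma adjusted p = 0.0181), and likewise with TMM scaling (0.32, limma adjusted p = 0.0486).

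SESN1 (ENSG00000080546), a sestrin that restrains mTORC1 when amino acids are scarce, had its lowest mean in DMSO 12 h and its highest in GSI 48 h, as RRM2B did, but with wider spread. SESN1 had a normalised read count of 608, 611 and 491 in DMSO 12 h libraries 1 to 3 and 731, 793 and 614 in GSI 12 h. SESN1 counts at 48 h were 689, 804 and 671 in DMSO and 887, 857 and 701 in GSI. The groups were apart at 12 h by a narrow margin and overlapped at 48 h, and neither log2 difference passed, at 0.32 ± 0.15 (SE, limma adjusted p = 0.127) and 0.17 ± 0.15 (limma adjusted p = 0.443).

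TP53I3 (ENSG00000115129), a quinone oxidoreductase linked to oxidative stress, was the scarcest of the 9. TP53I3 had a normalised read count of 105, 70.9 and 85.8 in DMSO 12 h libraries 1 to 3 and 100.1, 138 and 132 in GSI 12 h. TP53I3 counts at 48 h were 125, 79.9 and 109 in DMSO and 134, 151 and 198 in GSI. The groups overlapped at 12 h through library 1 and were apart at 48 h.

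The log2 difference of TP53I3 was 0.50 ± 0.24 (SE) at 12 h (limma adjusted p = 0.144) and 0.62 ± 0.24 at 48 h (limma adjusted p = 0.102), so its values did not pass in either. FAM228B overlaps TP53I3 on the other strand and had means of 161.0 and 281.9 in DMSO and GSI at 12 h and of 197.4 and 320.1 at 48 h. That neighbour thus had more reads than TP53I3 in every group and a higher mean in GSI, and without strand the reads of the pair cannot be told apart.

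ZMAT3 (ENSG00000172667), a zinc finger protein that binds RNA, had overlapping groups in both treatment comparisons. ZMAT3 had a normalised read count of 3331, 3074 and 2332 in DMSO 12 h libraries 1 to 3 and 2709, 2846 and 2594 in GSI 12 h. ZMAT3 counts at 48 h were 3707, 4014 and 2773 in DMSO and 3582, 3459.8 and 3614 in GSI. DMSO library 3 was the lowest at both times, and the GSI libraries lay within the DMSO range, so the log2 differences were -0.09 ± 0.14 (SE, limma adjusted p = 0.702) at 12 h and 0.04 ± 0.14 (limma adjusted p = 0.883) at 48 h.

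Over the 9 genes, 2 were called higher and 1 lower in GSI at 12 h, where limma called 10.1% of all genes tested higher and 11.4% lower. At 48 h again 2 were called higher and 1 lower, against 4.33% and 5.35% of all genes. Leaving out both GSI libraries numbered 3 left 1 higher and 1 lower at 12 h and none at 48 h, in a fit that called 10.6% of all genes at 12 h and 0.748% at 48 h. The median log2 difference of the 9 was 0.32 at 12 h and 0.17 at 48 h, beside 0.00064 and -0.0039 over all genes tested. Since the 9 genes were chosen with earlier results of these data known, setting these medians side by side is not a test. Over the 57 tested genes of the 5 lists of other p53 targets described below, the medians were -0.0059 and 0.012. With the number as a block, 3 of the 9 were called higher and 2 lower at 48 h, against 27.3% of all genes called in either direction. The 12 h and 48 h comparisons share no library, and AEN and TNFRSF10B were called in the same direction in both. The comparisons are not independent, since 1 fit estimated the spread for both and same-numbered libraries of a treatment deviated together across the 2 times.

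**Figure D2:**
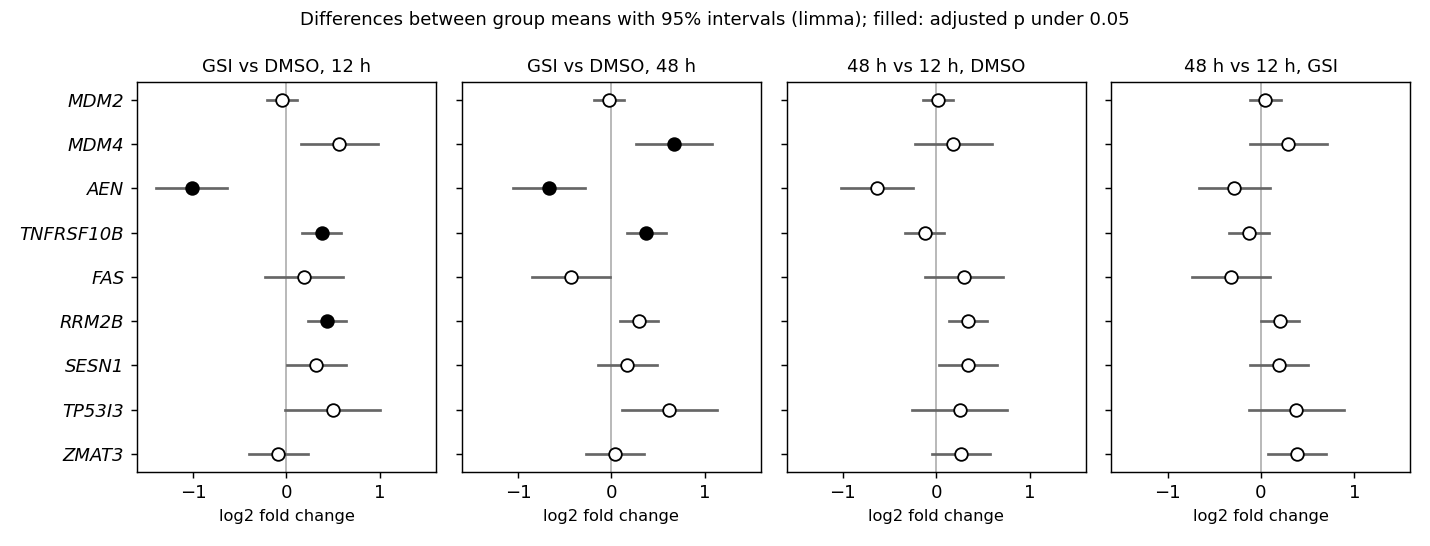
Log2 difference (horizontal axis, log2(value + 1) scale) of each of the 9 genes in 4 comparisons, with 95% intervals and filled circles at an adjusted p under 0.05 by limma. AEN lies at -1.02 and -0.67 in the treatment comparisons and MDM2 within 0.05 of 0 in all 4 panels.

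Levels of different genes can be set side by side only per length. Per kilobase of annotated exon, the DMSO 12 h mean was highest for AEN (1197), followed by MDM4 (774), MDM2 (555) and TNFRSF10B (545). ZMAT3 (302), RRM2B (140.4), SESN1 (111), FAS (89.1) and TP53I3 (37.8) were lower. MDM2 and TNFRSF10B were thus nearly equal per kilobase, and the top and bottom members were far apart.

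The change with time was examined within each treatment. The DMSO 12 h libraries enter both the DMSO time comparison and the 12 h treatment comparison, so the pair is not independent. Limma without a block called 0 of the 9 genes in DMSO (3 at an unadjusted p under 0.05), beside 4.53% of all genes, while edgeR called 0 and DESeq2 2. Over all 19281 genes that comparison gave 3364 at an unadjusted p under 0.05, 931 calls by edgeR and 1568 by DESeq2. In GSI it called 0 (2 at an unadjusted p under 0.05), beside 3.98% of all genes, and edgeR and DESeq2 called 0. Over all genes the GSI time comparison gave 3092 at an unadjusted p under 0.05, 740 calls by edgeR and 1257 by DESeq2. RRM2B came closest in DMSO, with a log2 difference of 0.34 ± 0.09 (SE, limma adjusted p = 0.0592), followed by AEN with -0.63 ± 0.18 (limma adjusted p = 0.0606).

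Libraries of the same number deviated together across time within each treatment, and a fit with a block for each number within treatment called more. In DMSO it called 5 of the 9, beside 29.2% of all genes. AEN fell by 0.63 (SE 0.07, limma adjusted p = 6.32e-05), and RRM2B rose by 0.34 (limma adjusted p = 0.00188). SESN1 rose by 0.34 (limma adjusted p = 0.00488), ZMAT3 by 0.26 (limma adjusted p = 0.00499) and FAS by 0.30 (limma adjusted p = 0.0183).

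In GSI this blocked fit called 6 of the 9, beside 28.8% of all genes. ZMAT3 rose by 0.39 (limma adjusted p = 0.000515), RRM2B by 0.21 (adjusted p = 0.0304), MDM4 by 0.29 (adjusted p = 0.0274) and TP53I3 by 0.38 (adjusted p = 0.0486). AEN fell by 0.28 (limma adjusted p = 0.0102), and FAS fell by 0.32 (limma adjusted p = 0.0130). MDM2 and TNFRSF10B were called in neither treatment.

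FAS was the member whose direction over time differed between treatments. From 12 to 48 h its log2 level changed by 0.27, 0.31 and 0.31 in DMSO libraries 1 to 3 and by -0.16, -0.45 and -0.35 in GSI libraries 1 to 3. All 3 DMSO pairs went up and all 3 GSI pairs went down. The difference between the treatment effects at 48 h and 12 h was -0.62, which passed with the block for each number within treatment (SE 0.12, limma adjusted p = 0.0120), in a fit that called 6.1% of all genes. With a plain block, 1 term per number over both treatments, the difference had an SE of 0.20 and did not pass (limma adjusted p = 0.364), and 0 of the 9 genes and 40 of all genes were called. Without a block limma called 0 of the 9 genes (1 at an unadjusted p under 0.05) and 0% of all genes (875 at an unadjusted p under 0.05), and edgeR and DESeq2 also called 0 of the 9. Over all genes edgeR called 0 and DESeq2 62.

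**Figure D3:**
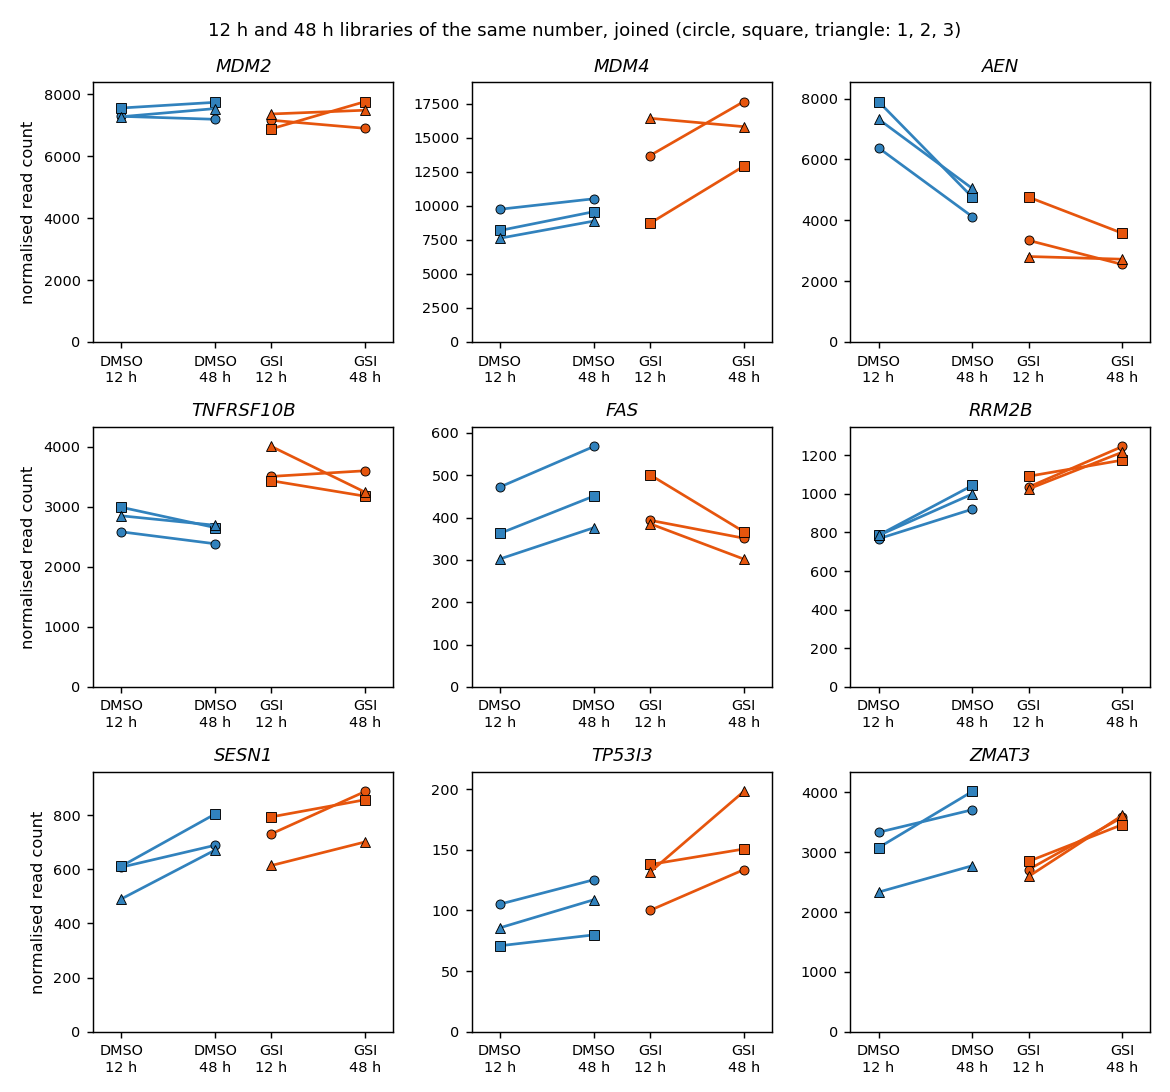
Normalised read count (vertical axis, starting at 0) of each of the 9 genes at 12 and 48 h (horizontal axis), with same-numbered libraries joined, DMSO in blue and GSI in orange. The 3 lines of FAS rise in DMSO and fall in GSI, and the 3 lines of AEN fall in both.

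The wider pathway was examined through 81 further genes in 6 lists, of which 72 were tested. Their counts stand beside the same shares of all genes as above: 10.1% called higher and 11.4% lower at 12 h, and 4.33% and 5.35% at 48 h. Of the 15 tested genes of the p53 family and its upstream regulators, none was called at 12 h (median log2 difference -0.10) and 1 was called lower at 48 h (median -0.07). With upper-quartile scaling these medians were -0.0097 and 0.02. The called gene was CDKN2A, whose normalised read count was 2159, 2357 and 2509 in DMSO 48 h and 1665, 1812 and 1608 in GSI 48 h, without overlap. Its log2 difference was -0.47 ± 0.12 (SE, limma adjusted p = 0.0327), and the call was lost without any 1 of the 6 libraries compared except GSI 48 h library 2 (-0.52 to -0.41) or with upper-quartile scaling (-0.38, limma adjusted p = 0.0505). At 12 h its groups overlapped, with means of 1892 ± 59.9 and 2014 ± 339.9 (SD, n = 3 each). The transcripts of ARF and of the cell cycle inhibitor p16 are both counted under this gene, and the table does not separate them.

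Of 8 tested targets in cell cycle arrest, 2 were called higher and 2 lower at 12 h (median log2 difference -0.33), and 1 higher and 2 lower at 48 h (median -0.02, or 0.07 with upper-quartile scaling). CDKN1A, the inhibitor of cyclin-dependent kinases that is the classical p53 target, had 409.5, 352 and 238 in DMSO 12 h and 143, 223 and 159.8 in GSI 12 h. At 48 h it had 328, 277 and 231 in DMSO and 113, 194 and 118 in GSI, so GSI lay below DMSO at each time.

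CDKN1A fell by 0.91 on the log2 scale at 12 h (limma adjusted p = 0.0262) and by 1.00 at 48 h (limma adjusted p = 0.0339). Both calls were lost without DMSO library 1 or 2 or GSI library 1 or 3 of that time, with log2 differences of -0.86 to -0.75 at 12 h and -0.996 to -0.86 at 48 h. BTG2, an antiproliferative regulator of mRNA decay, rose at 12 h from 2495 ± 211 to 4453 ± 645 (mean ± SD, n = 3 each), a log2 difference of 0.83 ± 0.16 (SE, limma adjusted p = 0.00492). At 48 h it rose from 5092 ± 407 to 10054 ± 2486, a log2 difference of 0.96 ± 0.16 (limma adjusted p = 0.00749). BTG2 also rose with time, by 1.03 in DMSO (limma adjusted p = 0.00215) and by 1.16 in GSI (limma adjusted p = 0.000715).

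Among the other arrest targets, CCNG1, or cyclin G1, rose by 0.82 at 12 h (limma adjusted p = 0.0104), and PLK3, a polo-like kinase, fell by 0.54 at 12 h (limma adjusted p = 0.0418). The PLK3 groups overlapped, and its call was lost with upper-quartile scaling (-0.45, limma adjusted p = 0.0743). PHLDA3, an inhibitor of AKT, fell by 1.10 at 48 h (limma adjusted p = 0.0410). GADD45A, a stress-induced growth arrest gene, fell in DMSO from 12 to 48 h, from 2710.2 ± 378 to 1562 ± 186 (mean ± SD, n = 3 each; limma adjusted p = 0.00252). E2F7, a repressor of E2F target genes, rose in DMSO over the same time by 0.31 (limma adjusted p = 0.0454).

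Of 12 tested targets in apoptosis, 2 were called higher and 1 lower at 12 h (median log2 difference 0.21), and none higher and 1 lower at 48 h (median 0.15). BAX, a pore former of the mitochondrial membrane, had 7543 ± 1155 in DMSO 12 h and 7377 ± 1534 in GSI 12 h (SD, n = 3 each), with overlapping groups at both times. Its log2 difference was -0.04 ± 0.14 (SE, limma adjusted p = 0.865) at 12 h and -0.17 ± 0.14 (limma adjusted p = 0.455) at 48 h. TNFRSF10D, a decoy receptor for TRAIL, rose at 12 h from 15.8 ± 4.25 to 82.5 ± 39.2 (mean ± SD, n = 3 each; log2 difference 2.25 ± 0.53, SE, limma adjusted p = 0.0123), and without GSI 12 h library 1 this was 1.89 (limma adjusted p = 0.0636).

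APAF1, the scaffold of the apoptosome, rose by 0.45 at 12 h (limma adjusted p = 0.00733), and by 0.43 from 12 to 48 h in DMSO (limma adjusted p = 0.0217). TRIAP1, an inhibitor of apoptosis, fell by 0.74 at 12 h (limma adjusted p = 0.0134). PMAIP1, or NOXA, a BH3-only protein, fell at 48 h from 24544 ± 1336 to 15789 ± 2308 (mean ± SD, n = 3 each; limma adjusted p = 0.0366), a call that was lost with upper-quartile scaling (limma adjusted p = 0.0601). The death receptor TNFRSF10B was thus called higher at both times while PMAIP1 was called lower at 48 h.

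BBC3, or PUMA, another BH3-only protein, was scarce except in single libraries. BBC3 had a normalised read count of 27.4, 15.0 and 12.4 in DMSO 12 h, 20.4, 22.8 and 150.4 in GSI 12 h, 19.0, 18.8 and 19.1 in DMSO 48 h, and 29.3, 19.3 and 86.5 in GSI 48 h. Library 3 of each GSI group stood far above all others, and neither log2 difference passed (limma adjusted p = 0.205 at 12 h and 0.377 at 48 h). The same libraries held the most SESN2, a sestrin that p53 and ATF4 both can induce, at 10363 and 5587 against at most 1641 elsewhere. The median relative log2 level of 11 ATF4 stress response genes, SESN2 among them, was 2.06 in GSI 12 h library 3 and 1.21 in GSI 48 h library 3, and at most 0.0023 in the other 10 libraries. The part of that response in the BBC3 values was not tested.

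DDB2, which recognises ultraviolet damage in DNA, was the only 1 of 4 DNA repair targets called, and it was called higher at both times. DDB2 had a normalised read count of 3214, 2198 and 2826 in DMSO 12 h and 5745, 4619.8 and 6724 in GSI 12 h. DDB2 counts at 48 h were 3633, 2797 and 3617 in DMSO and 5276, 4314 and 6053 in GSI, and the groups did not overlap. DDB2 rose by 1.05 at 12 h (limma adjusted p = 0.00330) and by 0.64 at 48 h (limma adjusted p = 0.0403). The 48 h call was lost without DMSO 12 h library 3, GSI 12 h library 1, any DMSO 48 h library, or GSI 48 h library 1 or 3 (0.51 to 0.70).

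Of 10 tested targets in metabolism and autophagy, PRKAB1, a subunit of the energy sensor AMPK, was called lower at 12 h (-0.40, limma adjusted p = 0.0173), and none was called at 48 h. Of 23 other targets, 3 were called higher and 1 lower at 12 h, and 3 higher and 2 lower at 48 h. ZNF385A, a zinc finger protein, rose from 51.8 ± 7.73 to 285 ± 79.3 at 12 h (mean ± SD, n = 3 each; limma adjusted p = 0.00158) and from 72.8 ± 22.2 to 282 ± 128 at 48 h (limma adjusted p = 0.00876). NADSYN1, an enzyme of NAD synthesis, rose by 0.67 at 12 h (limma adjusted p = 0.0126), and CYFIP2, an actin regulator, rose by 0.40 at 48 h (limma adjusted p = 0.0280). ASCC3, a helicase of the ASC-1 complex, fell by 0.40 at 12 h (limma adjusted p = 0.00637) and by 0.29 at 48 h (limma adjusted p = 0.0422). TM7SF3, a membrane protein, fell by 0.36 at 48 h (limma adjusted p = 0.0454). Both 48 h calls were lost with upper-quartile scaling (limma adjusted p = 0.0808 for ASCC3 and 0.0645 for TM7SF3). NINJ1, which ruptures the membrane of dying cells, fell by 0.80 from 12 to 48 h in DMSO (limma adjusted p = 0.0328).

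**Figure D4:**
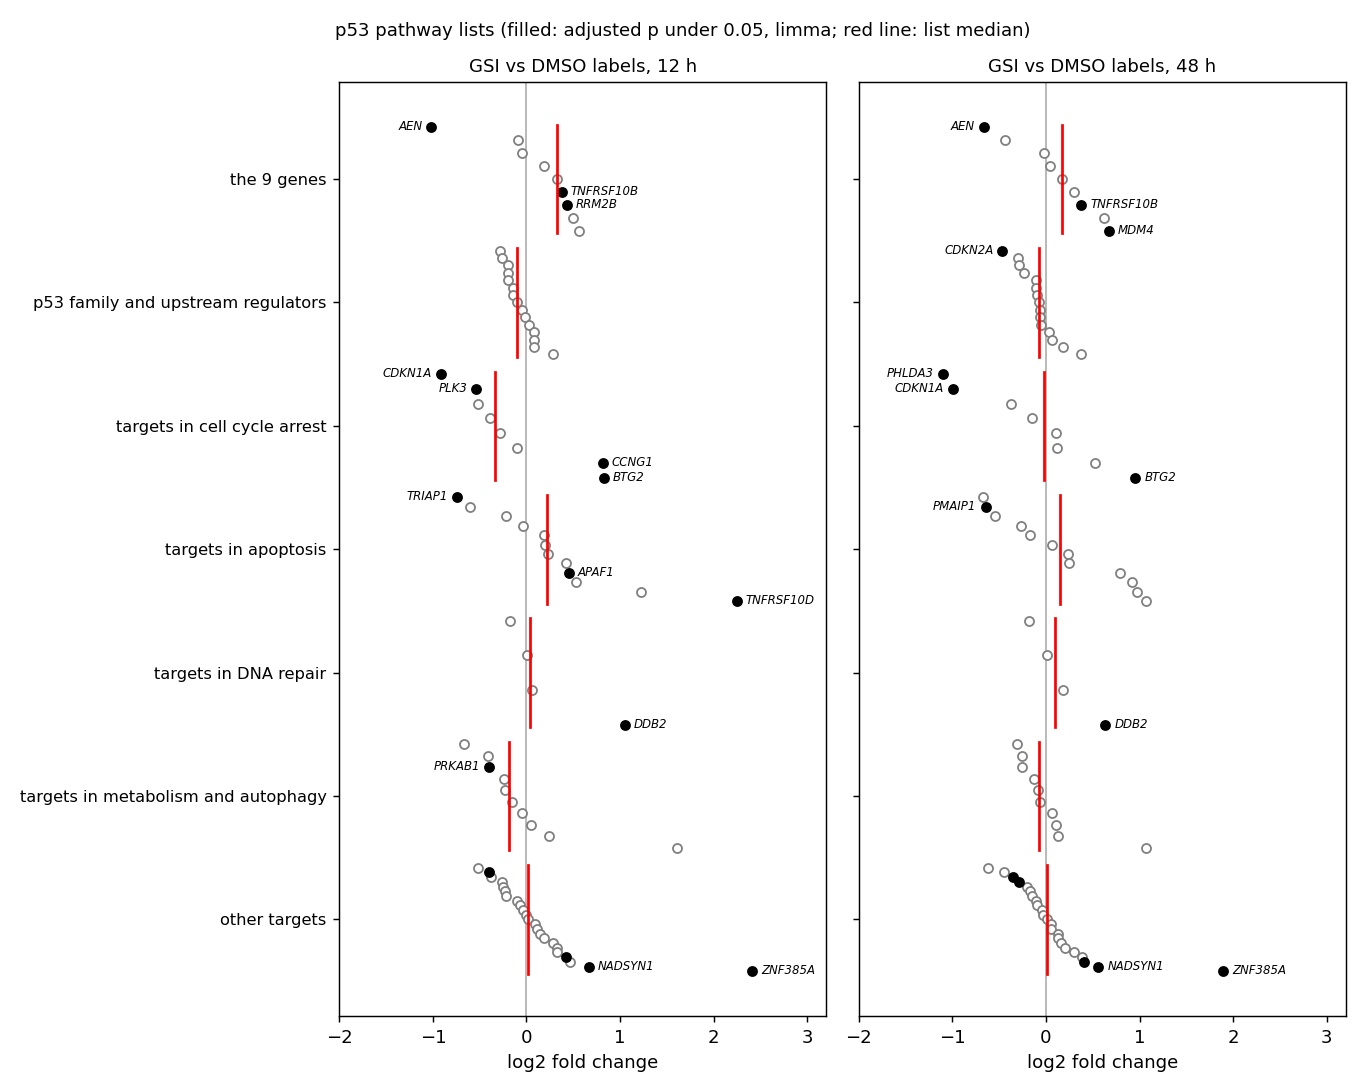
Log2 difference between GSI and DMSO libraries (horizontal axis, log2(value + 1) scale) for the 9 genes and the 6 pathway lists at 12 h and 48 h, with filled points at an adjusted p under 0.05 by limma and a red line at each list's median. ZNF385A lies at 2.41 and 1.89, and some called genes near 0 in the bottom row carry no name.

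Over the 72 tested pathway genes, 8 were called higher and 5 lower at 12 h, beside 10.1% and 11.4% of all genes, and 5 higher and 6 lower at 48 h, beside 4.33% and 5.35%. The median log2 difference was -0.04 at 12 h and -0.05 at 48 h, and it turned to 0.05 and 0.04 with upper-quartile scaling. Without both GSI libraries numbered 3, the counts were 7 higher and 3 lower at 12 h and 2 higher and 1 lower at 48 h, in a fit that called 10.6% and 0.748% of all genes. With the number as a block, 8 were called higher and 13 lower at 48 h, beside 27.3% of all genes called. Of the 28 calls of named pathway genes over the 4 comparisons, 11 were made with any 1 library left out: those of BTG2 in all 4, of ZNF385A at 12 and 48 h, of CCNG1, APAF1, DDB2 and ASCC3 at 12 h, and of GADD45A over time in DMSO. The other 17 were lost without at least 1 library. From 12 to 48 h, 3 were called higher and 2 lower in DMSO and 1 higher in GSI, beside 4.53% and 3.98% of all genes. With the block within treatment these became 13 and 10 in DMSO, beside 29.2% of all genes, and 11 and 15 in GSI, beside 28.8%.

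**Figure D5:**
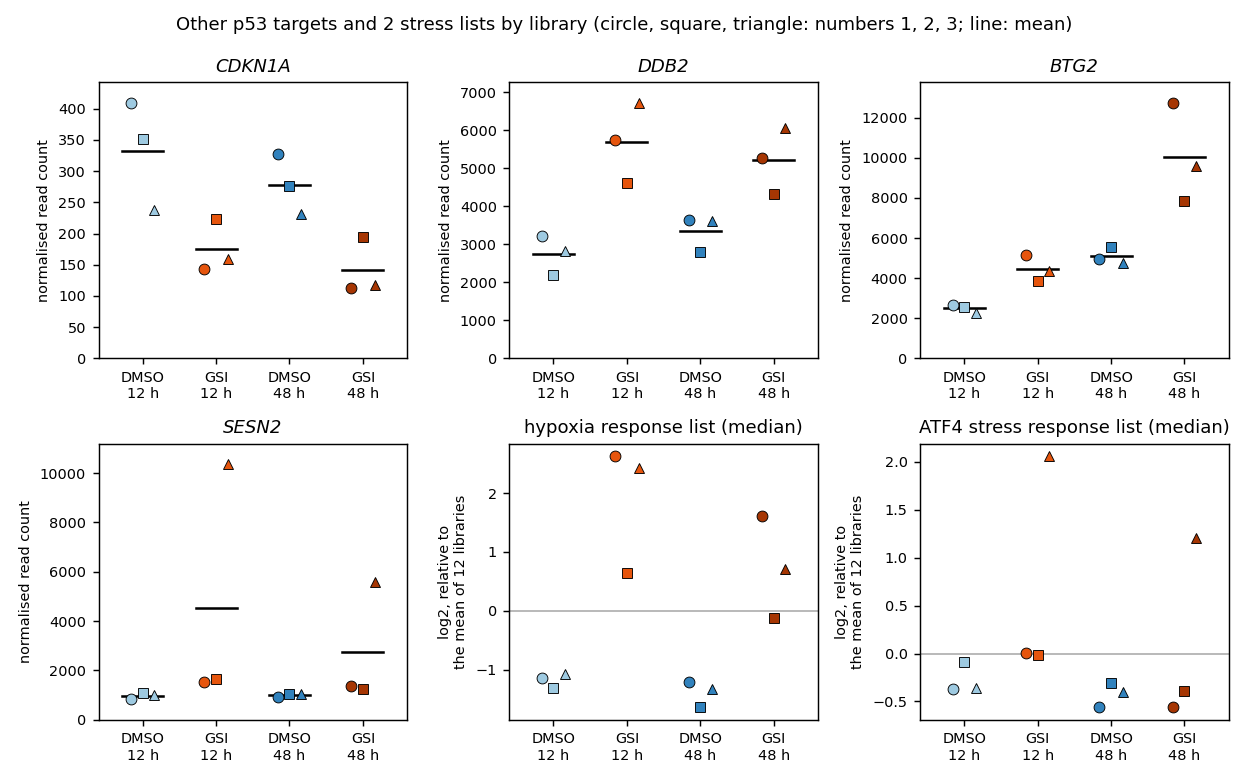
Normalised read count of CDKN1A, DDB2, BTG2 and SESN2 (vertical axes starting at 0, line at the mean) and the median relative log2 level of the hypoxia and ATF4 stress response lists, by group, with circles, squares and triangles for libraries 1, 2 and 3. SESN2 and the ATF4 list are highest in library 3 of each GSI group (10363 and 5587 for SESN2), and the hypoxia list is lowest in library 2 of each GSI group.

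Of 16 hypoxia response genes, 15 were called higher in GSI at 12 h and 10 at 48 h, beside 10.1% and 4.33% of all genes, with median log2 differences of 3.38 and 1.91. Without both GSI libraries numbered 3, 13 were called higher at 12 h and 0 at 48 h, and the medians were 3.07 and 1.96. That fit called 5.27% of all genes higher at 12 h and 0.337% at 48 h. Of 11 ATF4 stress response genes, 2 were called higher at 12 h and 1 at 48 h, with medians of 1.06 and 0.33. Without those 2 libraries, 4 ATF4 genes were called higher at 12 h and 0 at 48 h, beside the same 5.27% and 0.337%, and the medians were 0.08 and -0.24. Their part in the differences of the 9 genes and of the other p53 targets was not tested.

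Genes with a pattern like that of MDM2 were sought by the distance between the 3 group differences from DMSO 12 h, among 12412 named genes with a mean of at least 100. The nearest were OSBP (root mean square distance 0.0044), MAFG (0.0088), RNF11 (0.0090), DNAJC21 (0.011) and RTF1 (0.011). As many as 1701 genes lay within 0.1 of MDM2, so the flat pattern is a common one. The distance rests on 4 group means of the same 12 libraries.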

How the data were processed

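Poly-A RNA of 12 CUTLL1 libraries was measured. The submitters' processing notes list HTSeq 0.6.1, TopHat2 2.0.10, DESeq2 (no version), FastQC 0.10.1 and build hg19, and how they were combined, the annotation and any use of strand is not given in the sources used here. Values were deposited by the authors as a signal: counts scaled by a size factor. Whole reads could be recovered from the deposited steps, with 100% of values whole within 0.01. Depth limits the scarce genes most, and counting error adds to the spread between libraries there.

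The 19281 genes reaching a value of 10 in 3 or more libraries were fitted with limma 3.58.1 (R 4.3.3, trended prior) on log2(value + 1), with 1 mean per group over all 12 libraries and Benjamini-Hochberg adjustment over all genes, called at 0.05. Fold changes on this scale understate changes of scarce genes. As alternatives, edgeR 4.0.16 on recovered reads called 4201 genes at 12 h, 1914 at 48 h, 931 over time in DMSO and 740 in GSI, and DESeq2 1.42.0, other pseudocounts, filters, scalings, blocks and left-out libraries were run. The fit was also run on simulated counts with a single fixed spread and independent libraries. Those settings differ from these data, so that run does not measure its error rates here.

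The shared number was taken to pair libraries where every same-number correlation of deviations exceeded 0.1: 0.578, 0.612 and 0.545 across time in DMSO, 0.400, 0.545 and 0.466 in GSI, and 0.103, 0.157 and 0.104 between treatments at 48 h. At 12 h between treatments they were 0.096, 0.272 and 0.068, which does not meet it. The plain block, with its terms shared by both treatments, takes in these 12 h libraries as well. No pair of libraries within a group agreed within sampling noise, and pairs across groups were not compared in this way.

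The 9 genes and all lists were chosen with earlier results of these data known. Named pathway genes were, per list and comparison, up to 2 called in each direction with the smallest p and a mean of 50 or more where they were higher, plus CDKN1A, BAX and BBC3 whatever their values, and 1 further gene that is not reported here; SESN2 and the single markers were named after their values were seen. The relative log2 level of a list is the median over its genes of the log2 value minus that gene's mean over the 12 libraries. Symbols were matched to 50127 of the 62069 identifiers, and promoter windows came from RefSeq.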

Additional observations from a re-analysis of the deposited data

Results flagged for a closer look

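The GSI effect at 48 h differed from that at 12 h in 1 of the 9 genes and in 4 of the 72 tested pathway genes. The library number was here a block within treatment, in a fit that called 1177 of all genes (6.1%), 382 higher and 795 lower. The pathway count is near that share. The differences between the effects, on the log2 scale, were -0.62 ± 0.12 (SE, limma adjusted p = 0.0120) for FAS, -0.54 ± 0.09 (limma adjusted p = 0.00761) for CDKN2A and -0.42 ± 0.07 (limma adjusted p = 0.00629) for DDB2. They were -1.46 ± 0.38 (limma adjusted p = 0.0472) for TNFRSF10D and -0.43 ± 0.11 (limma adjusted p = 0.0490) for PMAIP1. All 5 were negative, as were most calls of that fit over all genes. Without a block limma called none of the 9 genes or of the 72 tested pathway genes, and likewise with a plain block, where FAS had an SE of 0.20 (limma adjusted p = 0.364), and the cause of the difference was not tested. Groups of 3 libraries are too small for the test of single outlying samples.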

How the results depend on the processing

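The counts of the 9 genes called moved with the block and with left-out libraries. At 12 h 3 were called, 2 with only the compared groups fitted or without both GSI libraries numbered 3 (TNFRSF10B lost), 4 with edgeR, DESeq2, upper-quartile scaling, a pseudocount of 10, a filter at 50 or without both GSI libraries numbered 2 (MDM4 gained), 5 with a replicate block, and 2 to 4 with 1 library left out. At 48 h 3 were called, 0 without a filter on low values or without both GSI libraries numbered 3, 4 with TMM scaling, upper-quartile scaling or DESeq2 (RRM2B gained), 5 with a replicate block, and 0 to 3 with 1 library left out. Over time in DMSO 0 were called, but 1 with a filter at 50, with upper-quartile scaling, with only the compared groups fitted, or without both GSI libraries numbered 2 or numbered 3, 2 with DESeq2, 3 with a replicate block, 5 with the block within treatment, and 0 to 1 with 1 library left out. Over time in GSI 0 became 6, and for the difference between effects 0 became 1, with the block within treatment.

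Directions that reversed belonged to MDM2 and ZMAT3, which were called in no treatment comparison. At 12 h upper-quartile scaling gave 0.041 for MDM2 and 0.0032 for ZMAT3, and leaving out 1 library gave -0.237 to 0.0197 for ZMAT3. At 48 h MDM2 was 0.00051 with TMM scaling, 0.068 with upper-quartile scaling, 0.00056 with edgeR and -0.059 to 0.026 with 1 library left out, and ZMAT3 was -0.12 to 0.15. MDM2 over time was -0.00175 to 0.051 in DMSO with 1 library left out, and -0.015 in GSI without both libraries numbered 2. Over all alternatives, values of the 9 genes kept direction and side of the threshold in 804 cases, passed it in 39, lost it in 28 and reversed in 11.

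For named pathway genes the figures were 569 kept and 109 lost. Upper-quartile scaling moved all genes called at 12 h from 1943 higher and 2201 lower to 2536 and 1585, and at 48 h from 834 and 1032 to 1220 and 682. DESeq2 called 3231 genes at 48 h, where limma called 1866. The causes were not tested. Leaving both GSI libraries numbered 3 out was chosen after seeing the data.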
